A study of Homo sapiens with 6 samples.

Results

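The 31 genes described here encode the enzymes that build cholesterol and the proteins that sense, take up, move, store and export it. They were chosen by gene symbol, and all 31 of 31 were found among the 19863 rows of the count table, each in a single row. By role they fall into 19 synthesis enzymes (8 of the mevalonate steps and 11 of the sterol steps), 5 sensing genes, 2 genes of uptake and intracellular transport, and 5 genes of efflux and storage. The genes were measured by mRNA sequencing in NGP, an established human neuroblastoma line with MYCN amplification. Cells grown in medium with fetal bovine serum were exposed for 12 h to OTSSP167 at 60 nM (3 libraries) or to the same volume of its solvent DMSO (3 libraries). OTSSP167 is a small molecule known as an inhibitor of the kinase MELK, and the study's title calls it an inhibitor of CAMKV. The labels describe no genetic change or further agent in either group, and whether a group's libraries derive from separate cultures is not stated in them. The p-values therefore measure only the spread between these libraries, which may be technical, and NGP is a single cell line.

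Cholesterol is made from acetyl-CoA through mevalonate, isoprenyl diphosphates, squalene and lanosterol, and the isoprenyl branch also supplies prenyl groups for proteins, dolichol and ubiquinone. Animal cells tune this pathway to their membrane sterol: when sterol in the endoplasmic reticulum is low, SCAP carries the SREBP transcription factors to the Golgi, where they are cleaved and released to activate the synthesis genes, and when sterol is high the INSIG proteins hold them back. Surplus sterol gives oxysterols that activate the LXR nuclear receptors, whose known targets include exporters and a ligase that removes lipoprotein receptors. SREBP activity is set largely by cleavage, which an mRNA level does not measure.

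Library totals ran from 46230392 to 50810126 counts with DMSO and from 36401828 to 57460375 with OTSSP167. Levels below are in CPM, the usual unit for a gene's counts as a share of its library total, here scaled by edgeR's TMM factors. They are relative to all counted reads of a library, so neither fewer cells nor less RNA per cell would be seen in them. Lower and higher below therefore mean relative to the other genes of a library, not per cell. Of 7 neuroblastoma markers, PHOX2A, HAND2, ISL1 and CHGA were present in both groups, while TH was near 0, at 0.266 ± 0.1304 CPM with DMSO (SD, n = 3). DBH averaged 8.89 CPM with DMSO and 0.899 CPM with OTSSP167, a difference that did not pass (edgeR adjusted p = 0.108). The summed level of the 7 markers was 1578 to 1851 CPM with DMSO and 1037 to 1147 CPM with OTSSP167. Of the 7, 3 fell, PHOX2A and ISL1 among them (edgeR adjusted p under 0.05), a share of 42.9% where 22.3% of all tested genes fell. The summed level of 10 markers of immune, stromal, endothelial, glial and epithelial cells was 17.6 to 22.3 CPM with DMSO and 22.04 to 30.03 CPM with OTSSP167. Of these 10 markers 4 were tested, of which CD14 rose from 0.391 to 14.2 CPM, EPCAM rose and COL1A1 fell, while PTPRC, PECAM1, VWF and S100B averaged under 0.2 CPM in each group and SOX10 was at 0 in the 6 libraries. The part of these markers in the results below was not tested.

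Transcripts of the synthesis enzymes were lower with OTSSP167 at most steps. For 3 of these enzymes, MVD, GGPS1 and HSD17B7, all treated libraries lay above the DMSO libraries, but none of them passed in edgeR. The sensing, efflux and storage genes also held both higher and lower values. By edgeR's quasi-likelihood test with Benjamini-Hochberg adjustment over 14402 tested genes (threshold 0.05), 16 of the 31 genes fell, 1 rose and 14 did not pass. Over all tested genes 46.1% passed, 22.3% lower and 23.8% higher, so a share of 51.6% lower and 3.23% higher among the 31 is to be read against these values. Of the 19 synthesis enzymes, 13 (68.4%) fell and 0 rose. At an unadjusted p under 0.05, 1 of the 19 was higher in edgeR, and after adjustment 2 were higher in DESeq2 and 1 in limma-voom. Of the 5 sensing genes 1 fell, and of the 7 genes of uptake, efflux and storage 2 fell and 1 rose. The median log2 fold change was -0.86 over the synthesis enzymes and -0.37 over the uptake, efflux and storage genes, beside 0.01 over all tested genes. The second of these medians was -0.24 without DMSO replicate 3, and no test compared the groups of genes with each other.

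**Figure D1:**
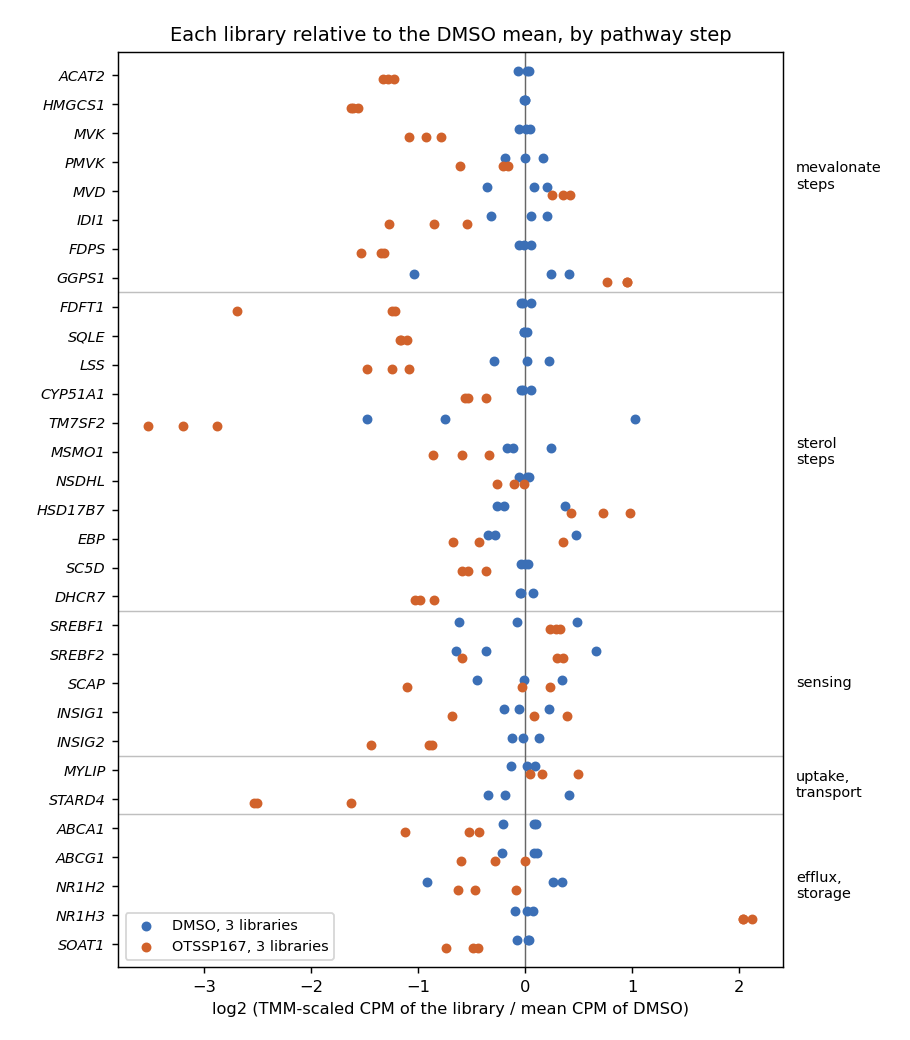
Level of each of the 31 genes in each library, as the log2 ratio of its TMM-scaled CPM to the mean CPM of the 3 DMSO libraries, in order of pathway step; blue points are DMSO and orange points OTSSP167. For HMGCS1, FDPS, SQLE and ACAT2 both groups are tight and lie far apart, whereas for SREBF2, SCAP and EBP the libraries of both groups are mixed.

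A test for a change beyond 1.5-fold (edgeR's glmTreat) was passed by 10 of the 31 genes, 9 lower and 1 higher, against 9.03% lower and 10.6% higher of all tested genes (19.6% in all). The 9 were ACAT2, HMGCS1, MVK, FDPS, SQLE, LSS, TM7SF2, DHCR7 and STARD4, and the gene that was higher was NR1H3. Without OTSSP167 replicate 2, 6 of the 31 genes passed this test. The 3 OTSSP167 libraries lay below the 3 DMSO libraries for 17 of the 31 genes and above them for 4, where 29.6% and 30.8% of all tested genes were separated in these directions. The genes that did not pass were often measured with a wide spread. The highest library of a group exceeded the lowest by more than 2-fold in 7 of the 14 genes that did not pass, and in 2 of the 16 that fell. A wide spread itself makes a gene less likely to pass, so these counts are no separate result.

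Promoter sequences are shown for the genes on which the results turn: HMGCS1, FDPS and STARD4, which fell, NR1H3, which rose, and SREBF2, the gene of the main sterol-responsive transcription factor. They are taken from the 250 bases before the RefSeq start site on GRCh38.p14, read 5′ to 3′ on the strand of the gene. Bases that GENCODE 29 annotates as exon of a protein-coding gene are left out: 118 of the 250 for FDPS, 100 for HMGCS1, 55 for STARD4, 26 for SREBF2 and 84, of the neighbour ACP2, for NR1H3. Capitals mark a CCAAT box (CCAAT or its reverse complement ATTGG), the site of the factor NF-Y that works beside SREBP at many sterol genes, and an SRE-like motif. The HMGCS1 stretch is chr5:43313513-43313662 on the minus strand, that of FDPS is chr1:155308616-155308747 on the plus strand and that of STARD4 is chr5:111512591-111512785 on the minus strand. The SREBF2 stretch is chr22:41832855-41833078 on the plus strand, and that of NR1H3, at the first of its start sites, is chr11:47248134-47248299 on the plus strand.
HMGCS1: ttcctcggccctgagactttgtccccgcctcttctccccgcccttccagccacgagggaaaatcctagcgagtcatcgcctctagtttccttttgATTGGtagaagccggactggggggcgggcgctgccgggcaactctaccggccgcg
FDPS: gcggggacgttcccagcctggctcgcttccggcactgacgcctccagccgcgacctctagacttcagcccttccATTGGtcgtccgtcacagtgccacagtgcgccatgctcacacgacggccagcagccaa
STARD4: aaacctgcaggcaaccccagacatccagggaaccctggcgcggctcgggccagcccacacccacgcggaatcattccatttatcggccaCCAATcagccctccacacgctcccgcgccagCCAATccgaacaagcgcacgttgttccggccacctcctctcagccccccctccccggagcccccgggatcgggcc
SREBF2: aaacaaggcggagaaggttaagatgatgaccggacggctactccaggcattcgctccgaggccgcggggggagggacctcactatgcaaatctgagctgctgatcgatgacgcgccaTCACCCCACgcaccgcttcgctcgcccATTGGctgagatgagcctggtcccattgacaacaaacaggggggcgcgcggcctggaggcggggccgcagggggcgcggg
NR1H3: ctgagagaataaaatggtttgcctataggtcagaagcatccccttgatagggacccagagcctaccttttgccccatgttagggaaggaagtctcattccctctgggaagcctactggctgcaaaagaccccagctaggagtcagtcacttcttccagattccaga
Within the printed stretches, STARD4 held 2 CCAAT boxes, HMGCS1 and FDPS held 1 each, SREBF2 held 1 beside an SRE-like match, and no match was found for NR1H3. These counts depend on the bases left out. Over the full 250 bases, further CCAAT boxes begin at -122 and -51 from the start site of FDPS and at -100 from that of HMGCS1.

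In windows of 300 bases around the start sites (250 before, 50 after, annotated exons included), RefSeq sequences were matched for 27 of the 31 genes, 38 windows in all, and 4 motifs were searched on both strands. A CCAAT box was found for 20 of the 27 genes (74.1%), against 39.7% of 27305 genes with a window. It was found for 11 of the 13 matched genes that fell, for 8 of the 13 that did not pass, and for NR1H3 in another of its windows. A GC box (GGGCGG), the site of SP1-like factors, was found for 26 of the 27 genes, against 48.3% of all genes. An E-box (CACGTG) was found for 5 of the 27 genes, against 8.77%. The SRE-like letters TCACNCCAC were found for 1 of the 27 genes, SREBF2, against 1.39%. Only these exact letters were searched, with N as any base, so a site that differs from them or lies outside the window was missed. The count therefore does not show that the other promoters lack such sites. The 4 genes without a window, ACAT2, FDFT1, SQLE and ABCG1, were not searched. None of these motifs contains another, and a match is a description of the letters only. The 27305 genes were not limited to the 14402 tested ones, whereas all 31 genes were tested. A gene with more windows also has more places for a match, and there were 38 windows for the 27 genes and 35116 for the 27305. These shares therefore cannot set the 27 apart from other expressed genes.

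Of the 8 mevalonate genes 5 fell: ACAT2, HMGCS1, MVK, IDI1 and FDPS. ACAT2, the cytosolic thiolase that joins acetyl-CoA units (chromosome 6, 159760328 to 159779055 on GRCh38), measured 158.0, 170.1 and 167.6 CPM with DMSO and 70.8, 68.1 and 66.0 CPM with OTSSP167. Its groups were far apart, with a log2 fold change of -1.27 (SE 0.05, edgeR adjusted p = 6.3e-05). Of its annotated exon bases, 35.8% lie opposite exons of SOD2 and TCP1, and the strand setting of the counts is not given, so its level is uncertain by the reads of these genes; SOD2 had a log2 fold change of -1.27 and TCP1 of 0.02.

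HMGCS1, the HMG-CoA synthase (chromosome 5, 43289395 to 43313512), measured 445.3, 445.5 and 442.7 CPM with DMSO and 150.2, 144.2 and 146.3 CPM with OTSSP167. Libraries of a group differed by at most 1.04-fold, and the lowest DMSO library was 2.95 times the highest OTSSP167 library. The log2 fold change was -1.60 (SE 0.03, edgeR adjusted p = 7.4e-06), a level 3.03-fold lower.

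MVK, mevalonate kinase, measured 43.9, 47.0 and 45.9 CPM with DMSO and 21.5, 24.1 and 26.4 CPM with OTSSP167. It fell with a log2 fold change of -0.93 (SE 0.10, edgeR adjusted p = 0.0014). The next enzymes did not pass. PMVK, phosphomevalonate kinase, had overlapping groups at 17.9 ± 2.16 and 14.4 ± 2.36 CPM (SD, n = 3; edgeR adjusted p = 0.20). MVD, the decarboxylase that makes isopentenyl diphosphate, measured 43.4, 47.2 and 31.9 CPM with DMSO and 54.7, 52.3 and 48.7 CPM with OTSSP167. Its 3 OTSSP167 libraries lay just above the DMSO libraries, and the log2 fold change of 0.35 did not pass (SE 0.16, edgeR adjusted p = 0.137).

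IDI1, the isomerase of isopentenyl diphosphate, measured 77.0, 69.2 and 53.5 CPM with DMSO and 45.8, 27.6 and 36.9 CPM with OTSSP167. It fell by 0.86 in log2 units (SE of 0.23, edgeR adjusted p = 0.0299). The adjusted p was 0.0883 without DMSO replicate 1, 0.0828 without DMSO replicate 2, 0.0576 without OTSSP167 replicate 2 and 0.0774 without OTSSP167 replicate 3, and it lay between 0.0035 and 0.0883 across the 14 alternatives.

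FDPS, farnesyl diphosphate synthase (chromosome 1, 155308748 to 155320666), measured 263.0, 275.8 and 254.9 CPM with DMSO and 91.7, 104.2 and 106.0 CPM with OTSSP167. The groups were 2.41-fold apart at their nearest libraries, and the log2 fold change was -1.39 (SE 0.07, edgeR adjusted p = 0.000103). GENCODE names 8 FDPS pseudogenes, between which reads may be divided. GGPS1 makes geranylgeranyl diphosphate, the side branch used for protein prenylation. It measured 6.27, 17.2 and 15.3 CPM with DMSO and 24.9, 25.03 and 21.97 CPM with OTSSP167. The log2 fold change of 0.89 did not pass (SE 0.38, edgeR adjusted p = 0.112), and the single low DMSO library was replicate 1, without which the estimate was 0.56 (adjusted p = 0.0343, between 0.0343 and 0.209 across the alternatives). Exons of TBCE and ARID4B share 41.0% of its exon bases; TBCE had a log2 fold change of -1.50 that did not pass (edgeR adjusted p = 0.0735).

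**Figure D2:**
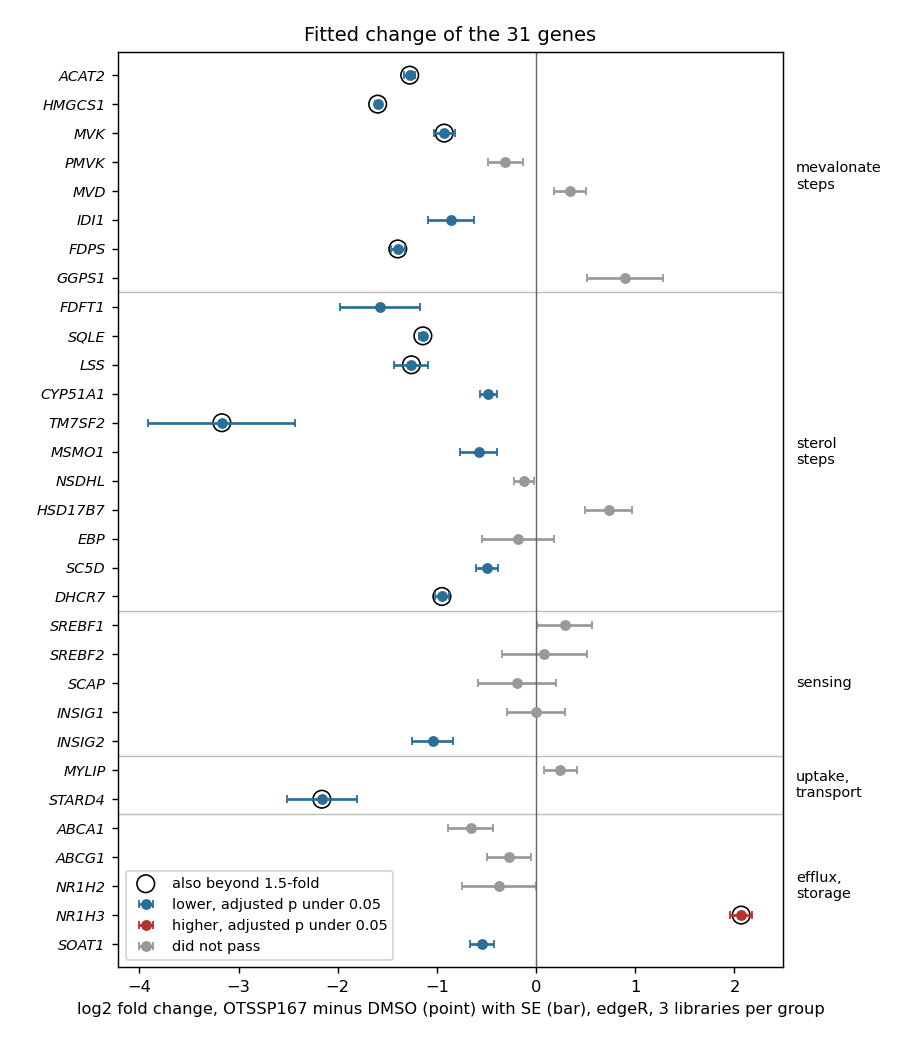
Log2 fold change of each of the 31 genes (OTSSP167 minus DMSO, edgeR, 3 libraries per group) with its standard error, in order of pathway step; blue and red mark genes that passed at an adjusted p under 0.05, and rings mark those that also passed against 1.5-fold. The 13 synthesis enzymes that fell range from -0.48 for CYP51A1 to -3.17 for TM7SF2, and NR1H3, at 2.07, is the single gene to the right that passed.

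Of the 11 sterol genes 8 fell, among which FDFT1 and TM7SF2 had the widest spread between libraries. FDFT1, squalene synthase, the first step committed to sterols, measured 319.0, 341.5 and 324.2 CPM with DMSO and 50.7, 138.5 and 141.8 CPM with OTSSP167. Replicate 1 of OTSSP167 stood apart, 2.80-fold below the highest treated library, and all 3 lay below the DMSO libraries. The log2 fold change was -1.57 (SE 0.40, edgeR adjusted p = 0.0246). The adjusted p was 0.0594 without DMSO replicate 1, 0.0639 without DMSO replicate 2 and 0.0594 without DMSO replicate 3, and between 0.000457 and 0.0639 across the alternatives.

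SQLE, squalene epoxidase, a rate-limiting step, measured 246.2, 246.6 and 251.0 CPM with DMSO and 115.8, 111.3 and 110.1 CPM with OTSSP167. Replicates differed by at most 1.05-fold, and the gene fell to a level 2.21-fold lower (log2 fold change of -1.14 with SE 0.04, adjusted p in edgeR = 3.2e-05). LSS, which closes squalene epoxide to lanosterol, measured 121.7, 141.2 and 98.5 CPM with DMSO and 43.2, 50.9 and 57.0 CPM with OTSSP167. It fell with a log2 fold change of -1.26 (SE 0.17, edgeR adjusted p = 0.0029).

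The enzymes that trim lanosterol gave mixed values. CYP51A1, the lanosterol demethylase, measured 60.2, 56.6 and 57.2 CPM with DMSO and 39.5, 40.1 and 45.2 CPM with OTSSP167. It fell by 0.48 in log2 units (SE of 0.08, edgeR adjusted p = 0.0064). Of its exon bases, 82.1% are also annotated to AC000120.2 and AC000120.3 on the same strand, and GENCODE names 3 CYP51A1 pseudogenes. LRRD1, which ends 6839 bases ahead on that strand, averaged 0.245 CPM with DMSO and 2.30 CPM with OTSSP167. The part of reads from these loci in the CYP51A1 value was not tested. TM7SF2, a sterol reductase of this part of the pathway (chromosome 11, 65111845 to 65116384), measured 5.29, 8.76 and 30.1 CPM with DMSO and 1.61, 2.00 and 1.28 CPM with OTSSP167. The DMSO libraries ranged over 5.68-fold but all lay above the OTSSP167 libraries. The log2 fold change of -3.17 (SE 0.74, edgeR adjusted p = 0.0186) rested in size on DMSO replicate 3, without which it was -2.12 (adjusted p = 0.0109). The call was lost without OTSSP167 replicate 1 (adjusted p = 0.0605), 2 (0.0527) or 3 (0.0628) and in limma-voom (0.0553), with values between 2.4e-05 and 0.0678 across the alternatives.

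MSMO1, the sterol methyl oxidase, measured 40.9, 42.6 and 54.5 CPM with DMSO and 25.3, 30.6 and 36.3 CPM with OTSSP167. Its fall by 0.58 (SE 0.18, edgeR adjusted p = 0.0479) was at the threshold and was lost in 8 of 14 alternatives. These were 3 other settings of scaling or filter, and the fits without DMSO replicate 1 (0.066), 2 (0.0803) or 3 (0.114) and without OTSSP167 replicate 1 (0.105) or 2 (0.113), with values between 0.0155 and 0.114 across the alternatives. NSDHL, the sterol dehydrogenase that acts with MSMO1, stood at 34.1 ± 1.13 and 31.4 ± 2.74 CPM (SD, n = 3; edgeR adjusted p = 0.358). HSD17B7, the keto-reductase of the same complex of steps, measured 11.3, 16.8 and 10.8 CPM with DMSO and 25.7, 17.5 and 21.5 CPM with OTSSP167.

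HSD17B7 thus stood above its DMSO levels in the 3 treated libraries, but by 1.04-fold at the nearest pair, and its log2 fold change of 0.73 did not pass in edgeR (SE 0.24, adjusted p = 0.0536). It passed without DMSO replicate 2 (0.0269) and in 5 other alternatives, between 0.00974 and 0.153 across the alternatives, and GENCODE names 2 pseudogenes of it. EBP, the sterol isomerase, had mixed groups at 39.2 ± 13.4 and 34.7 ± 13.6 CPM (SD, n = 3; edgeR adjusted p = 0.714).

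Both genes of the last steps fell. SC5D, the sterol desaturase, measured 20.6, 19.8 and 20.3 CPM with DMSO and 15.7, 13.4 and 13.95 CPM with OTSSP167. It fell by 0.49 (SE 0.11, edgeR adjusted p = 0.0153). DHCR7, the terminal reductase that yields cholesterol (chromosome 11, 71428193 to 71452868), measured 107.0, 106.0 and 115.8 CPM with DMSO and 55.7, 60.7 and 53.9 CPM with OTSSP167. Its groups lay 1.75-fold apart at the nearest pair, and it fell by 0.95 (SE 0.07, edgeR adjusted p = 0.000367).

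Added over the 19 enzymes, synthesis transcripts stood at 2050, 2161 and 2058 CPM with DMSO and 909, 985 and 1024 CPM with OTSSP167. The 6 sums do not overlap, and their means, 2090 ± 62.0 and 972.5 ± 58.3 CPM (SD, n = 3), differ by 2.15-fold. The 8 mevalonate genes went from 1058 ± 31.4 to 466.8 ± 7.16 CPM and the 11 sterol genes from 1031 ± 36.0 to 505.7 ± 64.6 CPM. Such a sum follows its most counted members and was not tested.

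**Figure D3:**
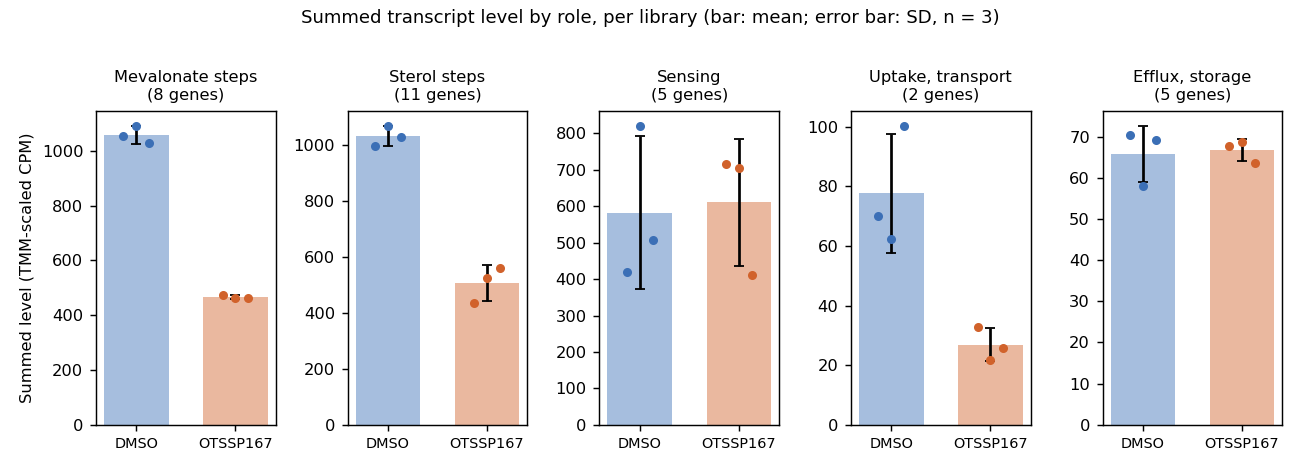
Summed TMM-scaled CPM of the genes of each role, per library (points), with the mean (bar) and SD (error bar) of 3 libraries; each panel has its own axis, which starts at 0. The sums of both synthesis groups and of uptake and transport are lower in each OTSSP167 library, whereas those of sensing and of efflux and storage overlap between the groups.

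Of the 5 sensing genes INSIG2 fell and the other 4 did not pass. INSIG2, which retains SCAP in the endoplasmic reticulum (chromosome 2, 118088452 to 118110997), measured 12.0, 10.1 and 10.8 CPM with DMSO and 4.03, 5.98 and 5.87 CPM with OTSSP167. It fell by 1.04 (SE 0.20, edgeR adjusted p = 0.0098). INSIG1, its paralog and a known SREBP target, measured 52.5, 70.2 and 58.0 CPM with DMSO and 63.8, 79.2 and 37.5 CPM with OTSSP167. The INSIG1 groups overlapped with nearly equal means, 60.2 ± 9.10 and 60.2 ± 21.1 CPM (SD, n = 3; edgeR adjusted p = 0.999), and leaving out OTSSP167 replicate 3 gave a log2 fold change of 0.25 (adjusted p = 0.314). The INSIG1 and INSIG2 changes were not tested against each other.

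The transcription factor genes and their escort did not pass. SREBF2, whose product drives the cholesterol genes, measured 253.5, 630.8 and 308.5 CPM with DMSO and 508.9, 490.4 and 264.4 CPM with OTSSP167. The groups were mixed, and the log2 fold change of 0.08 had an SE of 0.43 (edgeR adjusted p = 0.89), the widest SE of the 5 sensing genes. SREBF1, whose product leans to fatty acid genes, measured 45.4, 65.9 and 96.99 CPM with DMSO and 87.4, 85.0 and 81.8 CPM with OTSSP167. Here the DMSO libraries ranged over 2.14-fold and enclosed the treated ones (log2 fold change of 0.29 with SE 0.27, adjusted p in edgeR = 0.432). SCAP, the escort, measured 44.4 ± 11.9 and 38.8 ± 16.2 CPM (SD, n = 3; edgeR adjusted p = 0.713).

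Of the genes of uptake and transport, STARD4 fell and MYLIP did not pass. STARD4, a soluble sterol carrier and known SREBP target (chromosome 5, 111496033 to 111512590), measured 59.5, 53.4 and 90.3 CPM with DMSO and 21.9, 11.7 and 11.9 CPM with OTSSP167. Its nearest libraries were 2.44-fold apart, and the log2 fold change was -2.16 (SE 0.35, edgeR adjusted p = 0.0054), 4.47-fold lower. MYLIP, the ligase that marks lipoprotein receptors for degradation, had overlapping groups at 9.90 ± 0.761 and 11.7 ± 1.93 CPM (SD, n = 3; edgeR adjusted p = 0.277).

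NR1H3, which encodes the oxysterol receptor LXR alpha, was the single gene of the 31 that rose (chromosome 11, 47248300 to 47269032). It measured 5.90, 5.67 and 5.25 CPM with DMSO and 24.47, 23 and 23.06 CPM with OTSSP167. The lowest treated library was 3.90 times the highest DMSO library, and the log2 fold change was 2.07 (SE 0.11, edgeR adjusted p = 0.000126), 4.19-fold higher. The gene ahead of it on the same strand, DDB2, ends 9059 bases away and stood at 4.11 CPM with DMSO and 4.31 CPM with OTSSP167. ACP2, on the opposite strand, shares 189 exon bases with NR1H3 and rose from 26.4 to 33.3 CPM (log2 fold change 0.34, edgeR adjusted p = 0.0227). The part of these reads in the NR1H3 value was not tested.

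The gene of the other receptor did not pass, nor did the 4 known LXR targets among the 31 genes. NR1H2, which encodes LXR beta, measured 25.8, 10.7 and 24.3 CPM with DMSO and 14.7, 19.1 and 13.1 CPM with OTSSP167, with overlapping groups (log2 fold change of -0.37 with SE 0.37, adjusted p in edgeR = 0.447). Of these 4 targets (ABCA1, ABCG1, MYLIP and SREBF1), 0 were higher after adjustment in edgeR, DESeq2 or limma-voom, and 0 were higher at an unadjusted p under 0.05 in edgeR. Over all tested genes 23.8% were higher after adjustment in edgeR, so a count over 4 genes cannot set these targets apart from other genes. ABCA1, the exporter that loads cholesterol onto apolipoproteins, measured 10.7, 10.6 and 8.64 CPM with DMSO and 6.92, 7.38 and 4.59 CPM with OTSSP167. All 3 treated libraries were below the DMSO libraries, and the log2 fold change of -0.66 (SE 0.23) had an edgeR adjusted p = 0.0614. It passed as lower in DESeq2 (0.018) and limma-voom (0.0485), between 0.018 and 0.143 across the alternatives.

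ABCG1, the exporter to mature lipoproteins, stood at 5.31 ± 0.639 and 4.39 ± 0.8997 CPM (SD, n = 3; edgeR adjusted p = 0.353). SOAT1, which esterifies cholesterol for storage, measured 23.48, 25.4 and 25.3 CPM with DMSO and 18.3, 14.9 and 17.6 CPM with OTSSP167. The groups did not overlap, and SOAT1 fell by 0.55 (SE 0.12, edgeR adjusted p = 0.0137). Summed efflux and storage transcripts were 65.9 ± 6.83 CPM with DMSO and 66.7 ± 2.66 CPM with OTSSP167 (SD, n = 3), a sum of the higher value of NR1H3 and the lower values of the other 4 genes.

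Other genes of sterol and isoprenoid handling were taken from 4 further lists, each of which held genes that rose and genes that fell. Of 9 further genes of the sensing machinery, 3 rose and 1 fell, with a median log2 fold change of 0.03; the share that passed, 44.4%, is close to the 46.1% of all tested genes. RNF145, a ligase that acts on SCAP and is known in mouse as an LXR target, rose from 143.0 ± 4.89 to 257.7 ± 8.97 CPM (log2 fold change of 0.85 with SE 0.04, adjusted p in edgeR = 0.000111). MBTPS2, the protease of the second SREBP cleavage, fell from 49.01 ± 1.03 to 32.6 ± 4.25 CPM (log2 fold change of -0.59 with SE 0.11, adjusted p in edgeR = 0.0096).

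Of 24 lipoprotein receptor and sterol transport genes, 22 were tested, of which 4 rose and 6 fell (median -0.10), 45.5% beside the 46.1% of all tested genes. SCARB1, the receptor for high-density lipoprotein, fell from 161.1 ± 3.95 to 84.9 ± 6.20 CPM (log2 fold change of -0.92 with SE 0.07, adjusted p in edgeR = 0.000297), and TMEM97, a sterol-regulated membrane protein, rose by 0.22 (SE 0.04, adjusted p = 0.0063). Of 16 genes of the isoprenoid branches, 2 rose and 5 fell (median -0.20), 43.8% beside the same 46.1%. DHDDS, a subunit of the dolichol-making prenyltransferase, rose from 68.2 ± 1.05 to 124.6 ± 3.95 CPM (log2 fold change 0.87, edgeR adjusted p = 0.000145).

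Of 16 further efflux, oxysterol and ester genes 11 were tested. Of these, 5 passed as higher (45.5%) and 2 as lower (18.2%), beside 23.8% and 22.3% of all tested genes. Of the 5, CYP46A1 (0 counts in each DMSO library) and CYP27A1 (0, 3 and 0 counts) entered the test only through their OTSSP167 libraries, so their calls are no support for a rise. With at least 1 CPM asked of all libraries, 3 rose and 2 fell of 9 tested, where 2813 rose and 2723 fell of all 11307 tested genes. ABCA3, a lipid transporter, rose from 265.8 ± 8.47 to 344.8 ± 5.50 CPM (log2 fold change of 0.38 with SE 0.03, adjusted p in edgeR = 0.000645). ABCA2, a related transporter linked to sterol trafficking, fell from 85.0 ± 4.72 to 62.0 ± 3.599 CPM (log2 fold change of -0.46 with SE 0.08, adjusted p in edgeR = 0.0055). LPCAT3, a phospholipid acyltransferase and known LXR target, is named after its values were seen. It stood at 17.1 ± 1.33 CPM with DMSO and 9.53 ± 2.13 CPM with OTSSP167 (SD, n = 3) and passed as lower (log2 fold change of -0.84 with SE 0.20, adjusted p in edgeR = 0.0196). The adjusted p was 0.0605 without DMSO replicate 1 and 0.0514 without DMSO replicate 2, and lay between 0.000468 and 0.0691 across the alternatives.

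**Figure D4:**
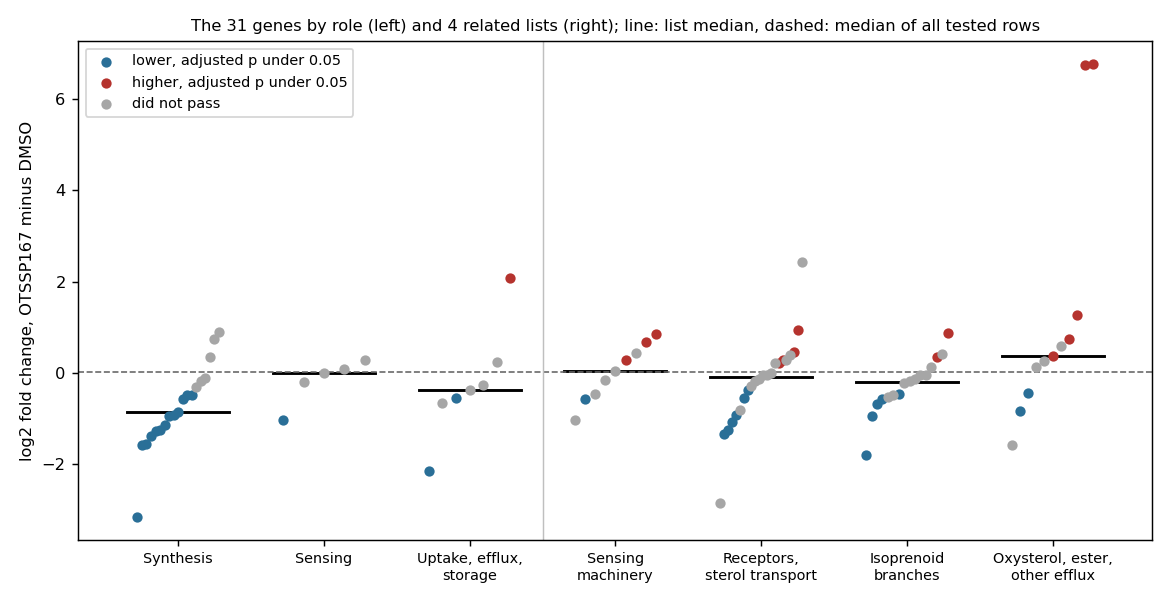
Log2 fold changes (OTSSP167 minus DMSO, edgeR) of the tested genes, with the 31 genes by role on the left and 4 further lists on the right; black lines are list medians and the dashed line is the median of all tested genes. The synthesis median, -0.86, is the lowest of the 7 drawn, in which uptake and transport (2 genes, median -0.96) is joined with efflux and storage, and the 2 points near 7 are oxysterol enzyme genes of at most 3 counts with DMSO.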

How the data were processed

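The authors deposited 1 table of whole-number read counts per gene symbol for the 6 libraries, with no normalized values. Libraries were made with a SMARTER mRNA kit from TRIzol-extracted RNA, per the labels' protocols. Per the submitters' processing notes, FastQC 0.11.2, HISAT2 2.1.0, StringTie 1.3.5 and GRCh38.p13 were used; which step made the counts, and with which annotation, strand setting and filters, was not given in the sources used here.

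Columns were mapped to samples by group and number. For the 58 symbols found on several rows, the name stands for the most counted row; all rows stayed in the fit. Between replicates the chi-square per gene had a median of 6.83 to 7.27 and a mean of 93.2 to 110, where sampling noise alone gives a mean near 1. All rows were analysed in edgeR 4.0.16 (R 4.3.3) with filterByExpr, TMM scaling and a robust quasi-likelihood fit of treatment alone; SE is the log2 fold change over the square root of F. The 31 genes had at least 47 counts in each library.

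The main model has no replicate block. Alternatives were DESeq2 1.42.0, limma-voom (limma 3.58.1), 3 scalings, 2 filters, the block, and each library left out. Gene positions and overlaps are from GENCODE 29 on GRCh38 and promoters from RefSeq. The genes, lists and tests were chosen with earlier results of these data known. All 31 genes are named, and from each further list the gene of smallest p in each direction that passed, besides genes said to be named after their values were seen. Some items chosen by this rule are not reported here.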

Additional observations from a re-analysis of the deposited data

How the results depend on the processing

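Of the 17 genes that passed, 11 passed in the same direction in all 14 alternatives run, and 6 lost the call in at least 1. With the replicate number as a block, TM7SF2 (adjusted p = 0.0678), SC5D (0.0542) and SOAT1 (0.057) were lost. Synthesis enzymes called in either direction ran from 10 to 15 of 19, and those called lower from 10 to 13. The 15, in DESeq2, were 13 lower and 2 higher. Among the uncalled genes, GGPS1, HSD17B7 and ABCA1 passed in at least 1 alternative.

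Upper-quartile scaling moved the median of all tested genes to 0.11, the synthesis median to -0.76 and the log2 ratio of summed synthesis levels from -1.10 to -1.0016. The synthesis median was -0.80 with at least 1 CPM in all libraries and -0.92 in limma-voom, and ran from -0.92 to -0.69 with single libraries left out. The median of uptake, efflux and storage genes then ran from -0.54 to -0.24. Genes beyond 1.5-fold numbered 6 to 10 of 31 with single libraries left out.

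With the replicate number as a block, 4887 genes passed in place of 6638, 14 of the 31 genes passed, 6 passed against 1.5-fold, and 4 of the oxysterol, efflux and ester genes passed in place of 7. The samples share only a number. Each correlated best with its own number, but at r = 0.01 to 0.04, where a pair of unlike numbers reached 0.0073. Values so near 0 cannot tell whether the samples were paired, and the design does not say.

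Among the 31 genes, signs turned in 4 that did not pass. INSIG1 was 0.0233 with DESeq2 size factors and in DESeq2, 0.0997 with upper-quartile scaling, 0.059 with at least 1 CPM in all libraries, 0.0115 in limma-voom, and -0.25 to 0.25 with single libraries left out. With single libraries left out, SREBF2 ran from -0.17 to 0.57, SCAP from -0.46 to 0.11 and EBP from -0.55 to 0.13. The causes were not tested.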

Other observations

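Named after its values were seen, CYP27A1, a mitochondrial sterol hydroxylase, had 0, 3 and 0 counts in the DMSO libraries and 178, 114 and 43 in the OTSSP167 libraries. The OTSSP167 levels were 4.54, 2.00 and 1.17 CPM. Its low-count filter was passed through the OTSSP167 libraries, and its DMSO level rests on 3 counts in a single library, so no fold or test is given.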
